A study of Mus musculus with 40 samples.

Results

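The lipid-sensing nuclear receptors examined here were Nr1h2, Nr1h3, Nr1h4, Rxra, Rxrb, Ppara, Ppard, Pparg, Nr0b2 and Nr1i3. The cytosines examined were those that the liver methylation table lists within 5000 bp of any annotated transcription start of these 10 genes (mm9 coordinates). The windows held 219 of the 400298 cytosines in the table. A listed cytosine was found at 9 of the 10 genes, and Nr1h4 had none. The table lists each strand of a CpG as a cytosine of its own, and every count of CpGs given here counts listed cytosines. Both strands were listed at some CpGs of 3 genes, so that the 41 cytosines of Nr1h2 lie at 39 CpGs of the sequence, the 19 of Nr1h3 at 16 and the 29 of Rxra at 27. At the other genes each listed cytosine lies at a CpG of its own.

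Methylation was measured by reduced representation bisulfite sequencing (RRBS) in whole liver from 40 male C57BL/6 mice (C57BL/6J in the study's methods) aged 9 weeks, with 10 mice in each of 4 groups. In RRBS the DNA is cut by MspI at CCGG, fragments of 150 to 600 bp are kept, and bisulfite turns unmethylated cytosines into bases that are read as thymine. Dams were fed a low-fat (LF) or a high-fat (HF) diet from before mating until weaning, and their male pups were then fed LF or HF. The groups are written with the maternal diet first and the post-weaning diet second, as LF-LF, LF-HF, HF-LF and HF-HF. The LF diet was rich in carbohydrate, and coconut oil supplied most of the fat in both diets. Males of a cage were divided between the post-weaning diets, so mice of different groups can be littermates. The labels do not name the litters, and the tests treated each mouse as independent.

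Nuclear receptors are transcription factors whose activity is set by small lipophilic ligands. The liver X receptors (Nr1h2, Nr1h3) sense oxysterols, the farnesoid X receptor (Nr1h4) senses bile acids, the peroxisome proliferator-activated receptors (Ppara, Ppard, Pparg) sense fatty acids, and Nr1i3 (the constitutive androstane receptor) controls genes that clear drugs and bilirubin. Most of them bind DNA as heterodimers with a retinoid X receptor (Rxra, Rxrb), while Nr0b2 (small heterodimer partner) lacks a DNA-binding domain and represses other receptors. Methylated CpGs are common over most of the genome and rare at the CpG islands where many genes start.

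The number of reads at listed CpGs ranged from 2969907 to 23345592 per mouse. Each mouse had a value, that is at least 10 reads, at 104 to 219 of the 219 receptor CpGs, with a median of 12 to 57 reads per CpG. With about 20 reads at a CpG the level of a single mouse is coarse, and the SD between mice includes this counting error. For the tests, a CpG needed a value in at least 36 of the 40 mice, which 131 receptor CpGs and 262317 CpGs in all had. No CpG near Nr0b2 reached that number. Over the 780 pairs of mice the methylation levels correlated at Pearson's r of 0.957 to 0.986 across 34368 CpGs covered in every mouse, and no mouse stood as a copy of another. The mean level of a mouse over those CpGs was 39.5% ± 0.133 (SD, n = 10) in LF-LF, 39.6% ± 0.26 in LF-HF, 39.7% ± 0.164 in HF-LF and 39.3% ± 0.363 in HF-HF mice. Among mice born from HF fed dams it was lower by 0.348 percentage points when they were fed HF after weaning (difference -0.348, permutation p = 0.00336), and among LF fed mice it was higher by 0.204 with HF fed dams (permutation p = 0.00804). The maternal diet in HF fed mice gave -0.224 (permutation p = 0.124), and the post-weaning diet after LF fed dams 0.0797 (permutation p = 0.395). These shifts stand beside each result of the same comparisons. The liver label could be looked at in few genes, and the levels there do not settle it. Of 10 hepatocyte genes 3 had tested CpGs within 1000 bp of a start (Apoa2 34.1%, Hnf4a 24%, Foxa3 11.1%). Among genes of other cells a liver can hold, the endothelial gene Kdr was at 4.6% and the stellate cell gene Des at 12.4%. A level between fully methylated and unmethylated in whole liver can come from a mixture of cells, and cells and alleles cannot be told apart here.

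The receptor windows were mostly unmethylated. Of the 219 CpGs, 166 (75.8%) had a mean level under 10%, 22 (10%) were between 10% and 80%, and 31 (14.2%) were above 80%. Over all listed CpGs these shares were 56.2%, 17.5% and 26.3%. The mean over receptor CpGs was 19.4%, against 33.8% over all listed CpGs. Over the tested CpGs alone, the window of Nr1i3 averaged 79.5%, that of Nr1h2 44.1% and that of Rxrb 15.6%, while the windows of Rxra, Ppara, Nr1h3, Pparg and Ppard averaged 4.09%, 3.56%, 2.18%, 1.88% and 0.328%. Over all listed CpGs the means were 85.4% for Nr1i3, 53.6% for Nr1h2, 38.6% for Ppard, 15.7% for Rxrb, 6.93% for Nr1h3, 2.48% for Rxra, 2.35% for Ppara and 1.68% for Pparg, so Ppard was low only over its tested CpGs, which all lie at its start. These levels are a description of which fragments RRBS reaches at each gene as well as of the genes.

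**Figure D1:**
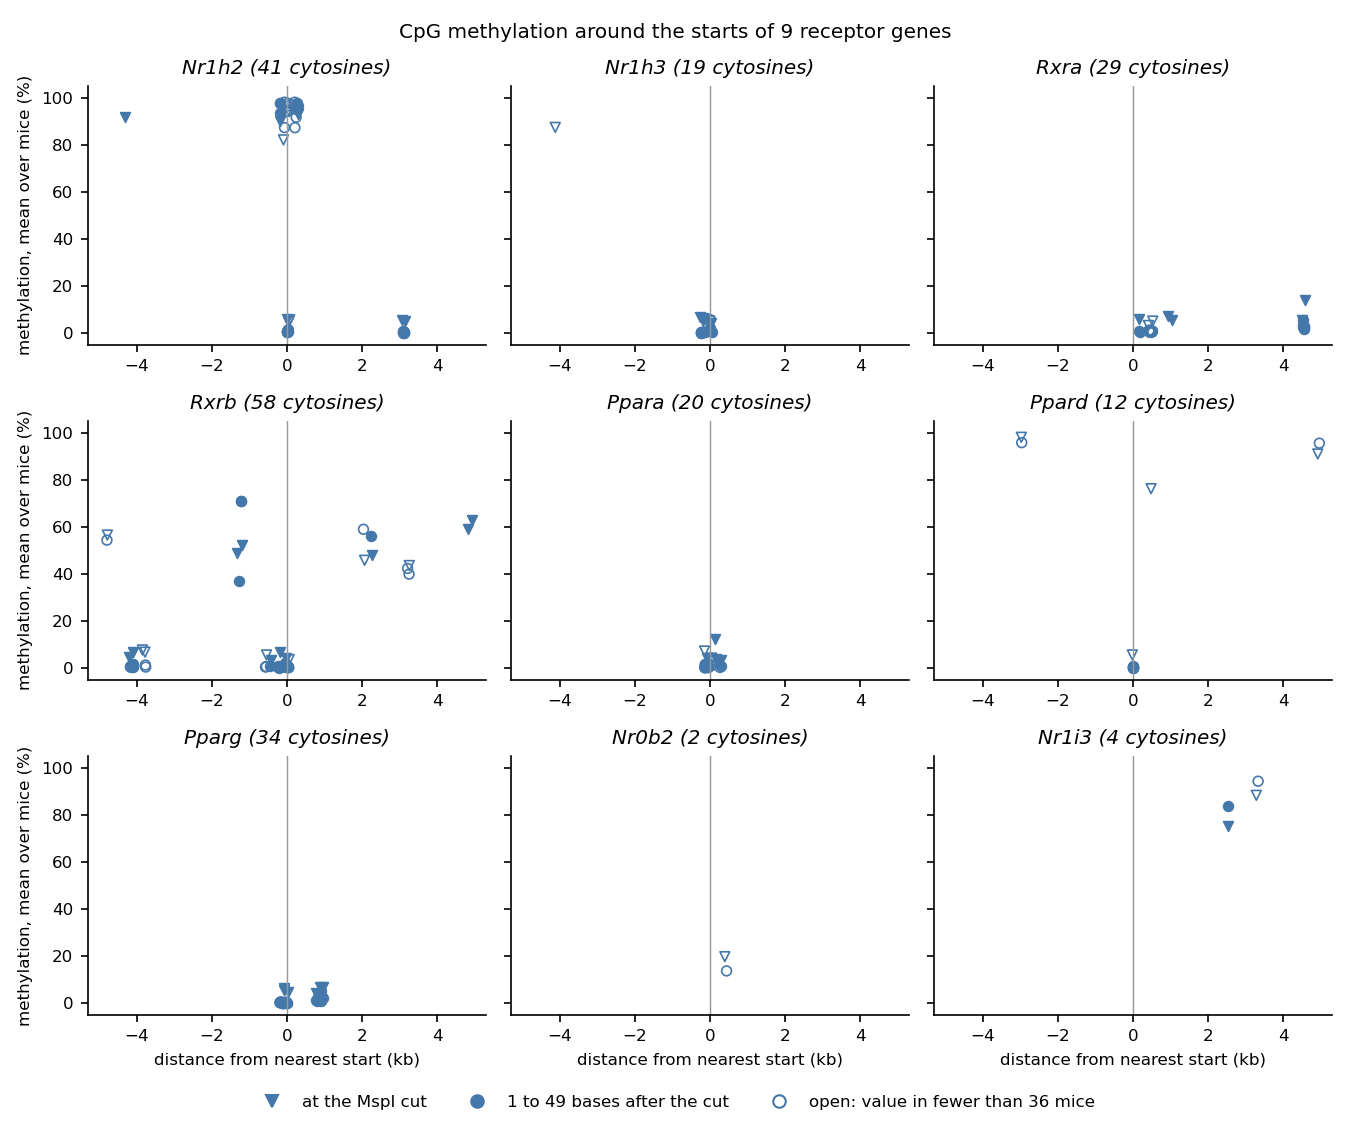
Mean methylation of each listed receptor CpG (vertical axis, percent) against its distance from the gene's nearest annotated start (horizontal axis, kb). Means are over the mice, and each of the 9 genes with listed CpGs has a panel. Markers differ between CpGs at the MspI cut and others, and open markers are CpGs with values in too few mice for the tests. Pparg stays under 10% throughout, Nr1h2 has 18 CpGs under 10% and 23 above 80%, and Rxrb has 16 CpGs at intermediate levels.

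The stretches of reference DNA that carry these patterns were read from the mm9 genome and are printed 5′ to 3′ on the strand of the gene, in lower case. Capitals mark the CpGs at which a cytosine was listed on either strand. The first stretch, from chr6:115311049-115311238, holds most of the CpGs at the start of Pparg and is shown as an unmethylated island. The next, from chr2:91043093-91043264, lies upstream of Nr1h3 and within Acp2, just past a start of that gene. The Nr1h2 stretch, from chr7:51807662-51807758, lies in an exon of a noncoding transcript of the gene and is almost fully methylated. The last of these, from chr15:85565845-85565900, lies in an intron of Ppara close to the 5′ end of the gene.
Pparg start: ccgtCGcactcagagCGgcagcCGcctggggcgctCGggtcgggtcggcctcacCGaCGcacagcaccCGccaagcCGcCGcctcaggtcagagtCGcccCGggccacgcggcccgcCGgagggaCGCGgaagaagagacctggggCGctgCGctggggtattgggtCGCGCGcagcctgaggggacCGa
Nr1h3 upstream: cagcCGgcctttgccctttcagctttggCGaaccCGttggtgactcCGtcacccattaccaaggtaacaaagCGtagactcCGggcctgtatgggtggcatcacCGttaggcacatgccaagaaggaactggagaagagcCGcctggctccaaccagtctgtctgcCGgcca
Nr1h2 exon: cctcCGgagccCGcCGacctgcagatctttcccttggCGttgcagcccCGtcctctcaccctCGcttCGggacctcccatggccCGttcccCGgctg
Ppara intron: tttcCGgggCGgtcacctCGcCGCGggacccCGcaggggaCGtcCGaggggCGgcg

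The stretches with intermediate levels, or with the largest differences between groups, were short. They are printed the same way, from chr17:34167432-34167564, chr17:34175445-34175482 and chr17:34176621-34176675 around Rxrb, from chr1:173147000-173147024 in Nr1i3, from chr4:133109682-133109736 in Nr0b2 and from chr17:28409597-28409637 in Ppard. The Ppard stretch is shown because its single listed CpG had the lowest level of the 5 intronic CpGs of that gene. Of the Nr1i3 stretch, 17 bases are also annotated as untranslated region of Nr1i3.
Rxrb upstream: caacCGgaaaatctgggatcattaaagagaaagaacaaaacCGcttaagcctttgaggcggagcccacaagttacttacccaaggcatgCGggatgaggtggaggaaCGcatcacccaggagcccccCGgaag
Rxrb past the 3′ end: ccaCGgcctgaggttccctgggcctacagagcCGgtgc
Rxrb side of Col11a2: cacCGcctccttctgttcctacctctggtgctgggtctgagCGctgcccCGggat
Nr1i3 coding exon: gatctgcCGctcttcCGgtgagtag
Nr0b2 coding exon: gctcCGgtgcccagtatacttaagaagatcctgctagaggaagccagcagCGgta
Ppard intron: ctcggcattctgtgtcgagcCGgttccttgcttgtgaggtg

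Both oxysterol receptors were unmethylated at their 5′ ends. Nr1h2 (chr7:51804986-51809321, minus strand, 11 annotated starts) had 41 listed CpGs. The 10 CpGs in its 5′ UTR averaged 1.33% for the group of 5 at chr7:51809008-51809040 and 2.63% for the group of 5 at chr7:51809193-51809303. Further into the gene the level was the opposite: 8 CpGs at chr7:51806955-51807084 averaged 93.1%, 4 at chr7:51807413-51807437 averaged 94.8%, and the 10 listed cytosines of the printed exon, at 9 CpGs, averaged 94.9%, with a range of 87.3% to 98.1%. The mean of a CpG group thus went from under 3% to over 90% between 313 and 1567 bases from the 5′ end. A CpG upstream of the 5′ end, at a distance of -4318 bases, stood at 91.7%. The remaining 8 CpGs, at chr7:51803834-51803921, lay inside Pold1, beginning 182 bases from the start of that gene, and averaged 1.5%. A level computed over the whole window thus mixes a methylated gene body with unmethylated start regions of both genes. Nr1h3 (chr2:91024218-91042991, minus strand, 8 starts) had 19 listed CpGs, and 18 of them were under 10%. The 12 listed cytosines of the printed stretch, at 9 CpGs, averaged 2.18%, with a range of 0% to 6.9%, and the nearest lay 12 bases from the start of Acp2, a lysosomal acid phosphatase gene. Levels of 2.35% were found at 2 CpGs inside the first exon and of 3.3% at 4 CpGs around an inner start at chr2:91035268-91035315. The exception was a CpG within Acp2 at chr2:91047114, with 87.4% ± 9.25 (SD over mice).

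The bile acid receptor Nr1h4 and the repressor Nr0b2 could hardly be assessed. The windows of Nr1h4 (chr10:88916979-88996330, minus strand, 3 starts) contain 166 CpGs and 8 MspI sites in the reference, but no listed CpG. Nr0b2 (chr4:133109291-133112451, plus strand, 1 start) had 2 listed CpGs, both in the coding exon printed above, 395 and 441 bases from the start. The first, chr4:133109686, had a level of 19.7% ± 8.36 (SD), and the second, chr4:133109732, of 13.6% ± 10.1. Mean levels over both were 15.4% ± 8.32 in LF-LF (n = 8), 14.7% ± 7.28 in LF-HF (n = 8), 18.4% ± 6.35 in HF-LF (n = 9) and 17.7% ± 8.68 in HF-HF mice (n = 9). The mice ranged from 2.08% to 32.5%, the 4 groups overlapped almost entirely, and the smallest exact permutation p of the 4 comparisons was 0.408.

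The retinoid X receptors were unmethylated at their starts. Rxra (chr2:27531960-27618477, plus strand, 6 starts) had 29 listed CpGs, of which 28 were under 10%. The 15 CpGs at chr2:27533191-27533305 averaged 0.978%. The 9 listed cytosines at chr2:27600219-27600308, at 7 CpGs of an intron 68259 to 68348 bases from the 5′ end but within reach of an inner start, averaged 4.39%, and the last of them had the highest level of the gene with 13.9% ± 8.25. Rxrb (chr17:34168757-34175338, plus strand, 11 starts) had the most listed CpGs, 58, in a gene-dense stretch where 44 of them lay nearer to a start of another gene. The 14 CpGs at its own start, chr17:34168867-34169005, averaged 1.07%. Upstream, within H2-Ke6, 12 CpGs at chr17:34164560-34164665 averaged 1.56%, and next to the start of Slc39a7, a zinc transporter gene, 7 CpGs at chr17:34168518-34168564 averaged 1.24%. Other stretches were at intermediate levels, also near starts of other genes. The 5 CpGs of the printed upstream stretch, at distances of -1321 to -1197 bases from the 5′ end and inside Slc39a7, 413 bases from a start of that gene, averaged 56%, with a range of 36.9% to 71.2%. The pair at chr17:34163962-34163974, 65 bases from a start of H2-Ke6, averaged 55.4%. Past the 3′ end of Rxrb, 2 CpGs averaged 52.4%, the next 2 averaged 52.1%, the 3 within Col11a2, a collagen gene, averaged 41.9%, and 2 single CpGs stood at 59.2% and 62.9%. All 16 intermediate CpGs of Rxrb lay outside the gene itself.

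The fatty acid receptors began in islands of low methylation. Pparg (chr6:115311239-115440419, plus strand, 2 starts) had 34 listed CpGs and none above 6.74%. The 22 CpGs at chr6:115311053-115311258 averaged 0.932%, and the 12 in the intron at chr6:115312023-115312209 averaged 3.06%. The nearest CpG to the start, chr6:115311237, averaged 0.0872%. Ppara (chr15:85565413-85633249, plus strand, 6 starts) had 20 listed CpGs, 19 of them under 10%, and the 9 CpGs of the printed intron stretch averaged 1.24%. A single CpG beside an inner start, chr15:85602789, was higher with 12.1% ± 7.93. Ppard (chr17:28369699-28438414, plus strand, 6 starts) had 7 CpGs at its start with a mean of 1.07%. Its 5 other CpGs, all in introns, averaged 97% for 2 at chr17:28405675-28405685, 76.3% for chr17:28409617 and 93.3% for 2 at chr17:28414059-28414101. Like Nr1h2, Ppard was thus unmethylated at the 5′ end and methylated inside the gene. Nr1i3 (chr1:173144101-173150832, plus strand, 7 starts) had, like Nr0b2, no listed CpG under 10%, and it was the most methylated of the receptor windows. Its 4 listed CpGs lay in coding exons 2907 to 3710 bases from the 5′ end. The pair at chr1:173147008-173147016 averaged 83.7% and 75.2%, and the pair at chr1:173147764-173147811 averaged 88.3% and 94.4%. The 5′ end itself held no listed CpG, so nothing can be said of its level.

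At 6 receptor CpGs no methylated read was found in any mouse. These were chr7:51803886 (0 of 1336 reads, which allows a level of up to 0.225%), chr2:91043230 (0 of 744, up to 0.403%), chr17:34168555 (0 of 683, up to 0.439%), chr17:28369698 beside the start of Ppard (0 of 833, up to 0.36%), and chr6:115311107 and chr6:115311246 at the start of Pparg (0 of 782 and 0 of 697, up to 0.384% and 0.43%). The limits assume 3 reads and cover counting error only. Within 500 bp of the gene's own start, 81.2% of 138 receptor CpGs were under 10%, against 91.4% of the 181453 listed CpGs that lie that close to any start. The medians were 0.746% and 0.612%. Of the receptor CpGs above 10% in that range, 22 were the methylated exon CpGs of Nr1h2, which lie near inner starts of the gene.

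Among unmethylated receptor CpGs, the level depended on the position in the read. An RRBS read begins at the cut CCGG, so the CpG of that site is its first informative base. Of the 219 receptor CpGs, 62 were at the cut (28.3%, against 36.1% over all listed CpGs). Among receptor CpGs with a mean under 20%, the 42 at the cut averaged 5.97% (range 3.04% to 19.7%), and the other 128 averaged 0.861% (range 0% to 13.6%). The level was higher at the cut in 40 of 40 mice: a mouse's mean ranged from 4.63% to 8.69% at the cut, with a median of 5.8%, and from 0.312% to 1.57% elsewhere, with a median of 0.794%. The ranges did not overlap. All listed CpGs under 20% showed the same offset, with medians of 5.72% at 55283 cut CpGs and 0.461% at the 181782 others, so it was not particular to the receptors. Above 80%, the 10 receptor CpGs at the cut averaged 91.3% and the 21 others 94.6%. Over all listed CpGs above 80% the means were closer, 91.2% at the cut and 91.8% elsewhere. The diets did not separate these values: the mean at the cut was 6.05% ± 1.21 (SD, n = 10) in LF-LF, 6.09% ± 1.28 in LF-HF, 6.11% ± 0.753 in HF-LF and 5.72% ± 0.689 in HF-HF mice, and the smallest permutation p of the 4 comparisons was 0.238. The cause of the offset was not tested. Low values at the cut, in the printed stretches the CG of each ccgg, are therefore given below with that position named.

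**Figure D2:**
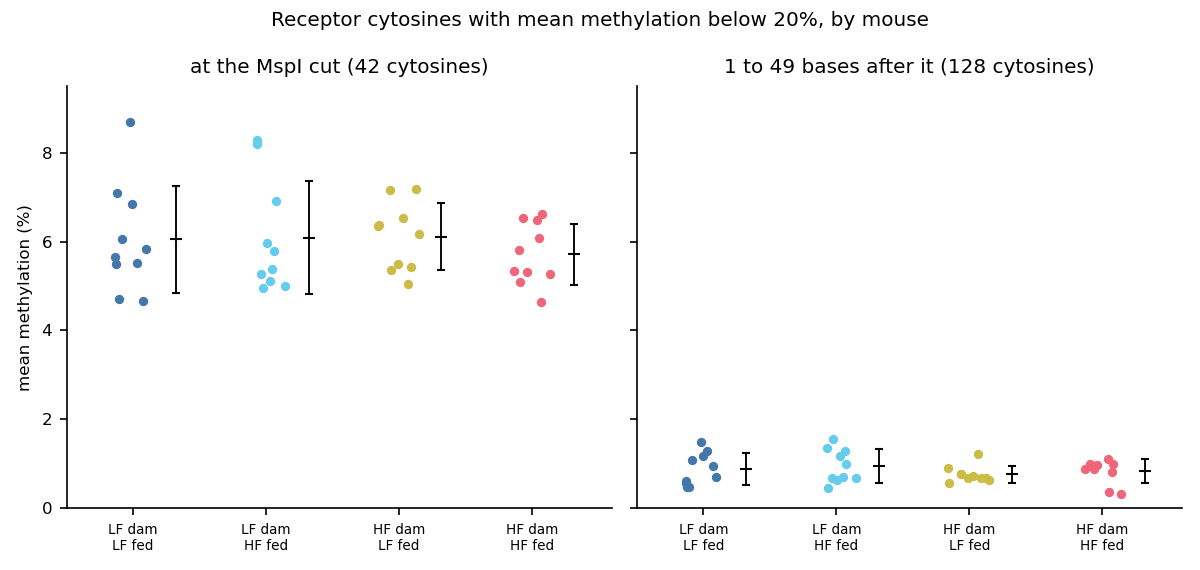
Mean methylation per mouse (vertical axis, percent) over receptor CpGs with a mean under 20%, at the MspI cut and at all other positions of the read, by diet group, each point being a mouse and the bars the group mean and SD. The points at the cut lie between 4.63% and 8.69% and those elsewhere between 0.312% and 1.57%, in every group.

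The design asks first whether the maternal diet left a difference in animals fed the same diet after weaning, and then whether the post-weaning diet made one in animals born from similarly fed dams. The window level of a receptor, the mean over its tested CpGs in each mouse, gave 32 differences over 8 receptors and 4 comparisons. None passed a false discovery rate (FDR) of 5% when adjusted over all gene windows, and the smallest FDR among the receptors was 0.748. In the same test 0% of the windows of all genes passed with the maternal diet in HF fed mice and likewise 0% in LF fed mice, 0% with the post-weaning diet after LF fed dams, and 0.00554% (1 of 18051) after HF fed dams. At an unadjusted p below 0.05, 4.86% of all gene windows passed for the maternal diet in HF fed mice, 5.43% in LF fed mice, 5.36% for the post-weaning diet after LF fed dams and 5.93% after HF fed dams. The receptors gave 1, 0, 0 and 1 of 8 in that order. The interaction of the diets was fitted by a linear model over all mice with a value, which were 39 at Nr1i3 and 38 at Ppard. It was past the FDR for 0% of windows. At an unadjusted p below 0.05 it passed for 5.48% of all windows and for 0 of the 8 receptors. The smallest unadjusted p of a receptor in that model was 0.106 at Nr1i3.

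The windows of the oxysterol receptors were near identical between groups. Nr1h2 averaged 44.1% ± 1.45 (SD, n = 10) in LF-LF, 44.2% ± 1.02 in LF-HF, 44.1% ± 0.66 in HF-LF and 44% ± 1.25 in HF-HF mice. Nr1h3 averaged 2.06% ± 0.687, 2.29% ± 0.877, 2.07% ± 1.13 and 2.31% ± 0.732 in the same order. The closest of the 4 comparisons of Nr1h3 was a difference of 0.232 between the post-weaning diets after LF fed dams (permutation p = 0.51). The groups also overlapped at the retinoid X receptors. Rxra averaged 4.34% ± 2.19, 3.85% ± 2.63, 4.06% ± 1.66 and 4.11% ± 1.79, with 1 LF-HF mouse below zero (-1.25%), which centring each CpG on its mean allows where CpGs are missing. Rxrb averaged 16.1% ± 1.45, 15.7% ± 1.31, 15.5% ± 1.63 and 15.1% ± 1.28, and its largest difference by p was -0.629 for the maternal diet in HF fed mice, with a 95% interval of -1.84 to 0.585 (permutation p = 0.288). Over the 11 CpGs of Rxrb covered in all 40 mice the same difference was -1.92 (unadjusted p = 0.0145 and FDR 0.943 in the test across all gene windows), and within 1000 bp of a start it was 0.538. Within 1000 bp Rxrb was at 2.11% in LF-LF, 0.795% in LF-HF, 1.41% in HF-LF and 1.33% in HF-HF mice over 16 CpGs. The comparison of the first pair, the post-weaning diet after LF fed dams, had an unadjusted p of 0.0057 and an FDR of 0.798 in the test across all gene windows, against a permutation p of 0.549 for the whole window.

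Over their tested CpGs the fatty acid receptors had group means under 5% in every group. Ppara averaged 4.09% ± 2.4 in LF-LF, 3.54% ± 2.21 in LF-HF, 2.78% ± 1.64 in HF-LF and 3.83% ± 2.01 in HF-HF mice. Among LF fed mice it was lower by 1.31 points with HF fed dams (difference -1.31, interval -3.24 to 0.62, permutation p = 0.171). Over all 20 listed CpGs of Ppara the same difference was smaller, -0.488 (permutation p = 0.388). Pparg averaged 1.69% ± 0.621, 2.08% ± 0.67, 1.95% ± 0.476 and 1.79% ± 0.57, with a closest permutation p of 0.191. The start of Ppard averaged 0.284% ± 0.576 (n = 9), 0.803% ± 0.796 (n = 9), 0.128% ± 0.273 (n = 10) and 0.139% ± 0.439 (n = 10). Most of these mice had no methylated read: the medians were 0% in LF-LF, HF-LF and HF-HF and 0.694% in LF-HF mice, where the highest mouse reached 2.38%. With HF fed dams the Ppard value was lower in HF fed mice (difference -0.665 points, interval -1.28 to -0.0511, exact permutation p = 0.036, FDR 0.967). A change of that size corresponds to few reads. Over all 12 listed CpGs of Ppard the same comparison gave a like difference of -0.663 with a wider interval (-2.93 to 1.61, permutation p = 0.552). With the mean methylation of each mouse as a covariate the difference at the start was -0.471 (p = 0.143 in the linear model). Outside Nr1i3, the 28 differences between window means ranged from -1.31 to 1.05 points, and their 95% intervals together reached from -3.24 to 2.78. The precision differed between receptors.

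**Figure D3:**
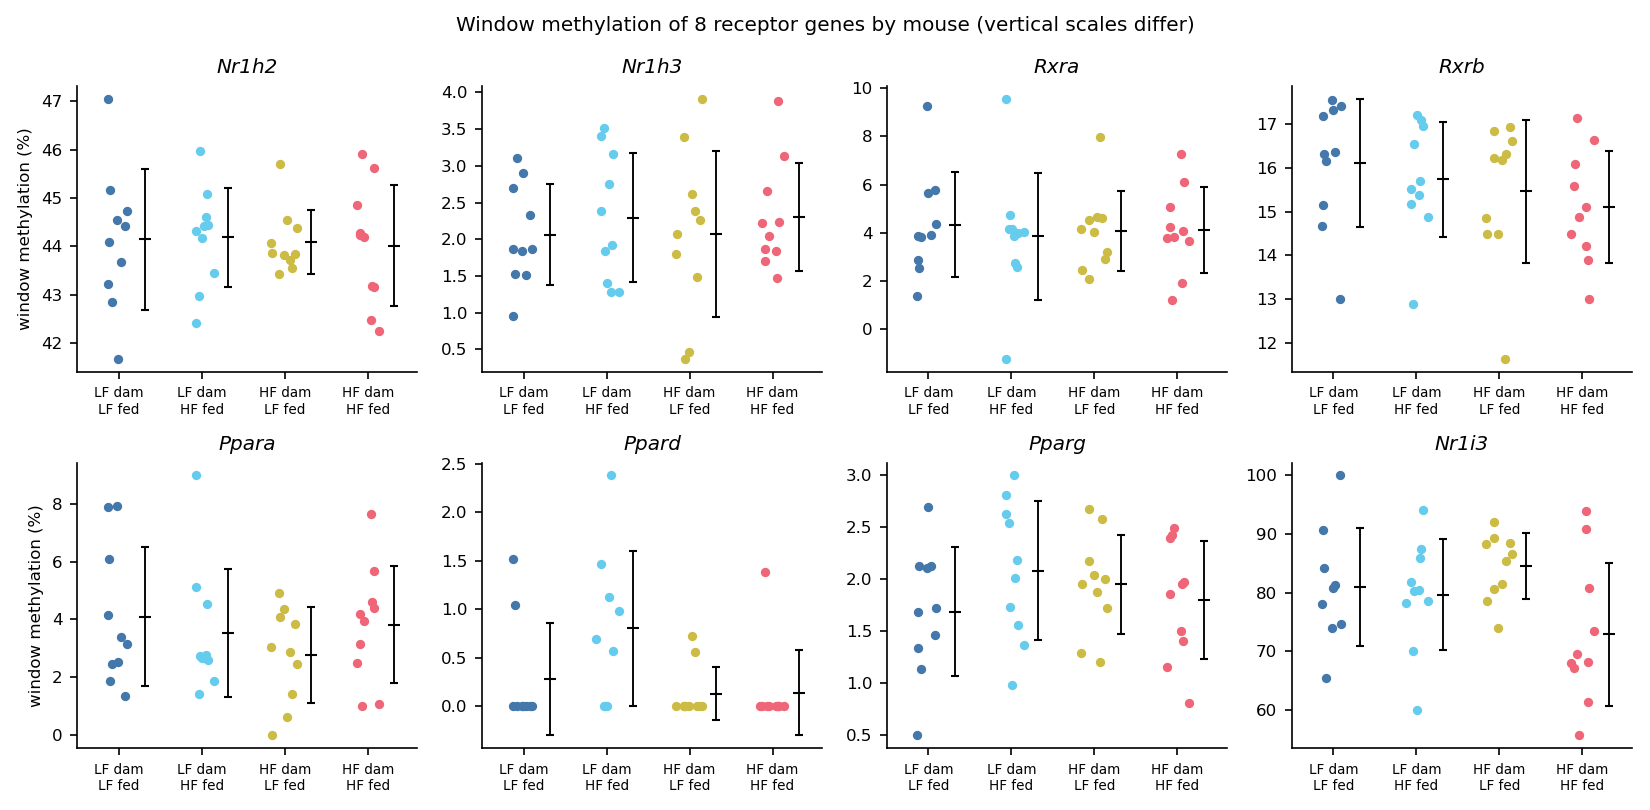
Window methylation of each receptor with tested CpGs (vertical axis, percent, its own scale in each panel) for every mouse by diet group, with the group mean and SD. The groups overlap in all 8 panels, and the HF-HF mice of Nr1i3 reach lowest, to 55.7%.

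**Figure D4:**
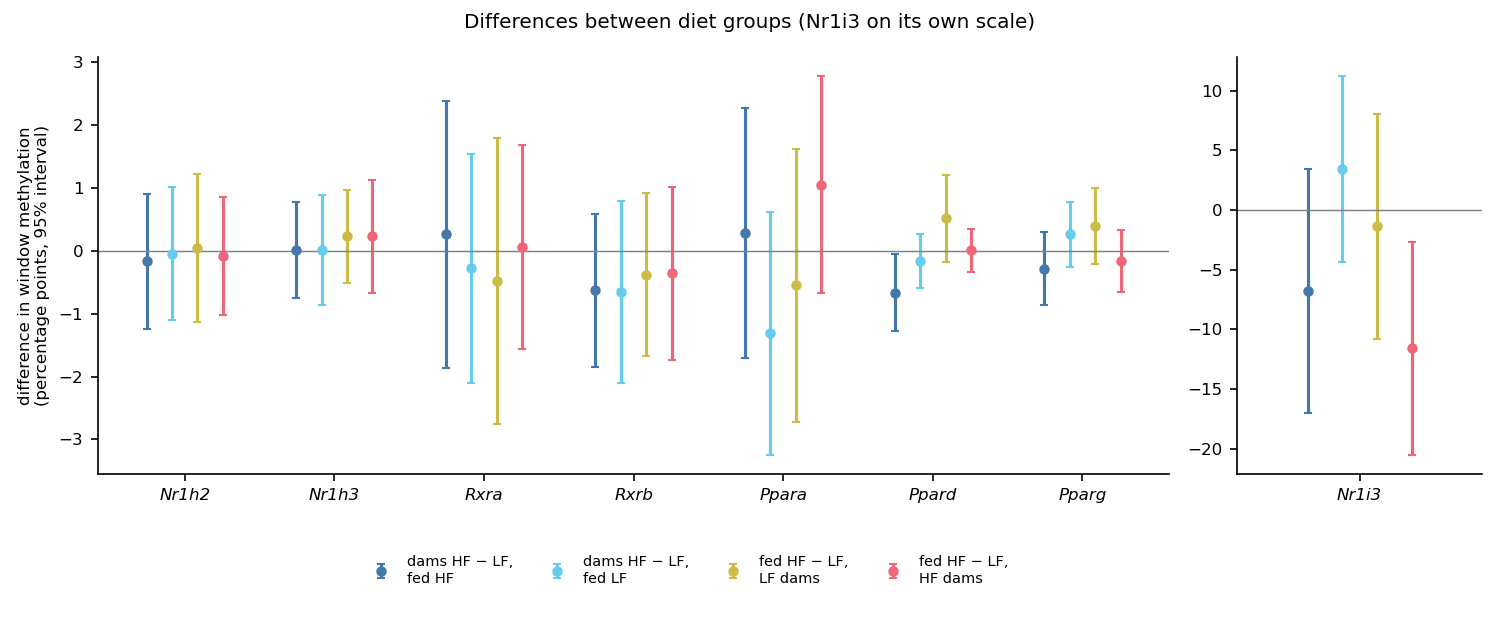
Difference in window methylation between groups (vertical axis, percentage points) with its 95% interval, for 8 receptors (horizontal axis) in each of the 4 comparisons. Nr1i3 has a panel and a vertical scale of its own. Intervals that leave out zero are those of Nr1i3 for the post-weaning diet after HF fed dams (-11.6) and of Ppard for the maternal diet in HF fed mice (-0.665).

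The largest difference was at Nr1i3. The mean of its 2 tested CpGs had a lowest, median and highest mouse of 65.4%, 80.8% and 100% in LF-LF mice and of 60%, 80.3% and 94.1% in LF-HF mice. The same values were 74%, 86% and 92% in HF-LF and 55.7%, 68.9% and 94% in HF-HF mice. The HF-HF mice were spread most widely: 7 of the 10 lay below the lowest HF-LF mouse, and the highest lay above every HF-LF mouse. The group means were 81% ± 10.1 (n = 9), 79.7% ± 9.42 (n = 10), 84.5% ± 5.62 (n = 10) and 72.9% ± 12.2 (n = 10). Among mice born from HF fed dams the level was thus lower by 11.6 points when they were fed HF (difference -11.6 ± 4.26 SE, interval -20.5 to -2.63, permutation p = 0.0144). This did not pass the FDR over all gene windows, which was 0.748. In mice born from LF fed dams the difference was not past the threshold (permutation p = 0.769), and the interaction was not either. The difference was -8.22 without the CpG at the MspI cut (permutation p = 0.0506, and 0.0488 in the test across all gene windows) and -7.08 over all 4 listed CpGs (permutation p = 0.0237). With the mean methylation of each mouse as a covariate it was -6.77 (p = 0.174 in the linear model), beside the shift of -0.348 in that mean between the same groups.

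The CpGs of Nr1i3 did not contribute equally. At chr1:173147016, the CG of the ccgg in the printed stretch, the lowest, median and highest values were 57.1%, 84.2% and 89.5% in HF-LF and 45.5%, 65.4% and 92% in HF-HF mice. The means were 79.8% ± 10.4 in LF-LF, 76.8% ± 10.6 in LF-HF, 79.9% ± 10.4 in HF-LF and 64.9% ± 15.7 in HF-HF mice, with a difference of -14.9 ± 5.95 (SE) between the last 2 (permutation p = 0.0235, FDR 0.82). At chr1:173147008, the other CpG of the stretch, the means were 82.3%, 82.5%, 89.1% and 80.9%, so the high HF-LF group took part in the difference. The CpGs of the next exon were at 87%, 92.4%, 88.1% and 85.8% (chr1:173147764) and at 95%, 95.2%, 95.6% and 91.7% (chr1:173147811). HF-HF was the lowest group at all 4 CpGs. The cytosines of a pair share reads, so they are not separate evidence. An intronic CpG of Ppard, chr17:28409617, also had its lowest mean in HF-HF mice: 79.7% ± 15.7, 78.6% ± 14.8, 80% ± 9.21 and 68.3% ± 13.2. The other intronic CpGs of Ppard did not share this. The pair at chr17:28405675-28405685 was lowest in HF-LF (96.3%) and that at chr17:28414059-28414101 in LF-LF mice (92.1%). Over all 12 listed CpGs of Ppard, HF-HF mice were lower than HF-LF mice, 37.6% ± 1.79 against 39.3% ± 1.15, with a difference of -1.7 (permutation p = 0.0225, FDR 0.751).

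**Figure D5:**
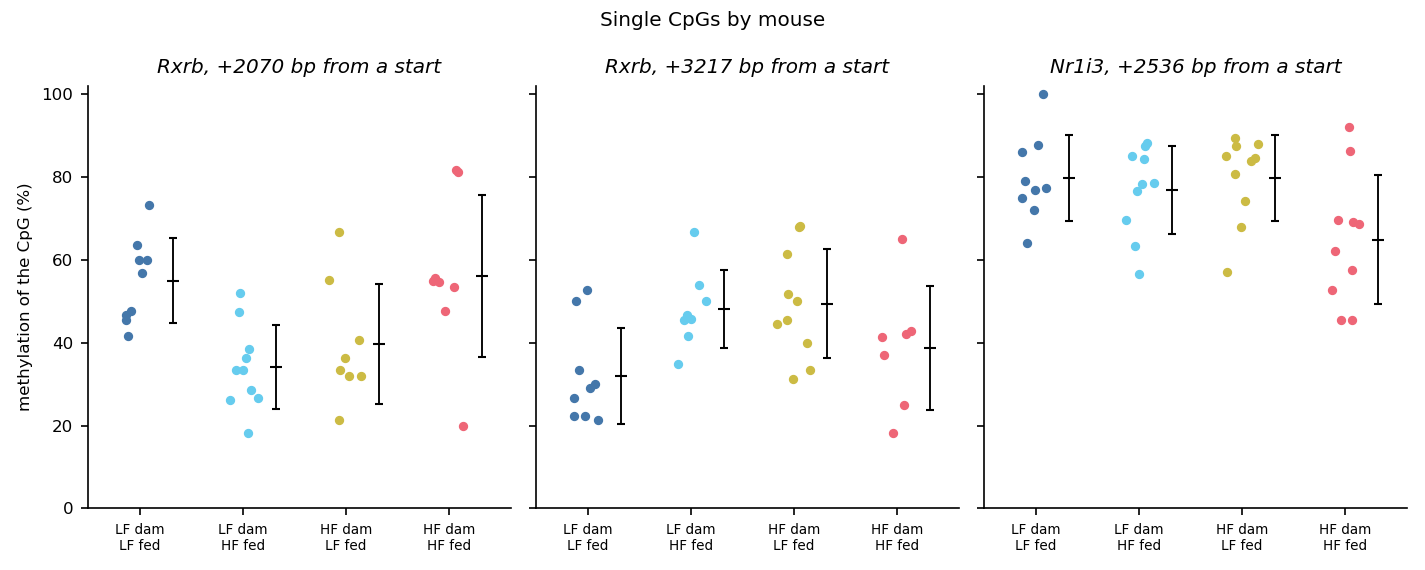
Methylation of 2 CpGs past the 3′ end of Rxrb (chr17:34175478 and chr17:34176625) and of chr1:173147016 in Nr1i3 (vertical axis, percent) by diet group, each point being a mouse and the bars the group mean and SD. At the CpG past the 3′ end of Rxrb the LF-LF and HF-HF means (55% and 56.1%) lie above those of LF-HF and HF-LF (34% and 39.7%), and the ranges of the 4 groups overlap.

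At the level of single CpGs, no receptor CpG passed an FDR of 5% in any comparison in the test across all CpGs, and the smallest receptor FDR was 0.808. Over all tested CpGs, 0% passed for the maternal diet in HF fed mice, 0% in LF fed mice, 0.00084% (2 CpGs) for the post-weaning diet after LF fed dams, 0.00124% (3 CpGs) after HF fed dams and 0% for the interaction. At an unadjusted p below 0.05 the receptors gave 4 of 118 CpGs with variable values (3.39%, against 3.72% of all tested CpGs) for the maternal diet in HF fed mice. The other counts were 3 of 115 in LF fed mice (2.61%, against 3.99%), 8 of 116 for the post-weaning diet after LF fed dams (6.9%, against 4.03%), 3 of 113 after HF fed dams (2.65%, against 4.06%) and 4 of 125 for the interaction (3.2%, against 4.18%). Of these CpGs 2, 3, 6, 2 and 3 were at the cut. With all 219 listed CpGs the counts were 7 of 196 (3.57%, against 3.63% of all listed CpGs), 6 of 193 (3.11%, against 3.82%), 13 of 190 (6.84%, against 3.88%), 7 of 192 (3.65%, against 3.97%) and 8 of 213 (3.76%, against 4.02%). The shares lay near those of all CpGs except for the post-weaning diet after LF fed dams. CpGs on the same reads were counted separately throughout. The exact Wilcoxon rank-sum test, limma on log2 ratios and a quasi-binomial model on the reads also left 0 receptor CpGs past the FDR in each of the 4 comparisons, and the counts at an unadjusted p below 0.05 were as follows, in the same order of comparisons. The rank-sum test gave 3, 3, 5 and 1 receptor CpGs (2.54%, 2.61%, 4.31% and 0.885%), against 3.46%, 3.6%, 3.72% and 3.69% of all tested CpGs. The limma test took all 131 tested receptor CpGs, also those without variable values. It gave 3, 10, 5 and 5 (2.29%, 7.63%, 3.82% and 3.82%), against 4.42%, 6.14%, 4.58% and 4.9%. Its log2 ratios had 0.5 added to each count, so at a CpG without methylated reads they vary with read depth alone. The quasi-binomial model gave 7, 5, 5 and 5 (5.93%, 4.35%, 4.31% and 4.42%), against 4.59%, 4.69%, 4.75% and 5.04%. The median difference over the receptor CpGs was 0 in each comparison with all listed CpGs.

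The smallest p at a receptor CpG belonged to chr17:34175478, the second CpG of the stretch printed past the 3′ end of Rxrb. It had a value in 35 mice, with a median of 15 reads, and it lies at the cut. Its lowest, median and highest values were 41.7%, 56.8% and 73.3% in LF-LF mice (n = 9) and 18.2%, 33.3% and 52% in LF-HF mice (n = 10). They were 21.4%, 34.8% and 66.7% in HF-LF mice (n = 8) and 20%, 54.8% and 81.8% in HF-HF mice (n = 8). Mice whose diet stayed the same as that of the dam were thus higher on average than mice whose diet changed at weaning, with overlapping ranges. The group means were 55% ± 10.3, 34% ± 10.1, 39.7% ± 14.5 and 56.1% ± 19.6. After LF fed dams the post-weaning HF diet gave a difference of -21 ± 4.7 (SE, exact permutation p = 0.000541, FDR 0.81 over all listed CpGs), and after HF fed dams one of 16.4 ± 8.61 (exact permutation p = 0.0771). The maternal diet gave 22.1 ± 7.12 in HF fed mice (exact permutation p = 0.00718) and -15.3 ± 6.05 in LF fed mice (exact permutation p = 0.0253). The interaction was 37.4 ± 9.4 (linear model p = 0.000385, FDR 0.867). The first CpG of the same stretch, chr17:34175449, had means of 62.2% ± 15.2, 56.2% ± 13.1, 56% ± 15.5 and 61.7% ± 13.3.

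The next CpG of this kind, chr17:34176625 within Col11a2, went the other way. It had a value in 34 mice, with a median of 20 reads, and was not at the cut. The means were 32% ± 11.7 in LF-LF (n = 9, 21.4% to 52.6%), 48.1% ± 9.37 in LF-HF (n = 8, 34.8% to 66.7%), 49.4% ± 13.2 in HF-LF (n = 10, 31.2% to 68.2%) and 38.8% ± 14.9 in HF-HF mice (n = 7, 18.2% to 65%). The maternal diet gave a difference of 17.4 ± 5.75 in LF fed mice (exact permutation p = 0.00868), and the post-weaning diet one of 16.2 ± 5.19 after LF fed dams (exact permutation p = 0.00905). The interaction was -26.7 ± 8.58 (linear model p = 0.00402, FDR 0.867). The other CpGs of the printed stretch had means of 37%, 41.7%, 42% and 38.5% (chr17:34176663) and of 36.6%, 46.6%, 46.2% and 45.1% (chr17:34176671). Upstream of Rxrb, chr17:34163974 had means of 55.7% ± 21.4, 59.8% ± 9.25, 62.5% ± 10 and 49% ± 11.1, with a difference of -13.5 ± 4.89 for the post-weaning diet after HF fed dams (exact permutation p = 0.011, FDR 0.812). The receptor CpGs with the largest SD between mice of a group were chr17:34176671 (14.7), chr17:34163962 (14.4) and chr17:34167522 (14.4), all around Rxrb. In the printed upstream stretch of Rxrb the group means lay within that spread: at chr17:34167522 the means were 74.9%, 71.4%, 71% and 67.8%, and at chr17:34167560 they were 57.2%, 48.2%, 53.1% and 50.5%.

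A further 6 CpGs among those with the smallest p lay at the cut and had mean levels under 10%. Not at the cut, an unadjusted p below 0.05 was found at tested CpGs upstream of Rxrb (chr17:34164640, chr17:34164644 and chr17:34164658), in the printed exon of Nr1h2 (chr7:51807690) and at chr1:173147008 of Nr1i3. At chr7:51803921, in Pold1 near the Nr1h2 gene, the lowest, median and highest values were 0%, 8.78% and 21.4% in LF-LF and 0%, 2.43% and 8.82% in HF-LF mice, with means of 9.47% ± 7.26 and 2.86% ± 2.53. The maternal diet thus gave a difference of -6.61 ± 2.43 in LF fed mice (permutation p = 0.0124, FDR 0.818), against 0.651 ± 1.5 in HF fed mice (permutation p = 0.672), and the interaction was 7.26 ± 2.85 (linear model p = 0.0155). In the printed stretch upstream of Nr1h3, chr2:91043097 was at 9.14% ± 7.53 in LF-LF (n = 9) and 2.01% ± 3.31 in LF-HF mice (n = 9), a difference of -7.13 (exact permutation p = 0.0137, FDR 0.808). In the same comparison chr2:91043183 was at 1.13% ± 2.63 in LF-LF and 4.67% ± 3.37 in LF-HF mice, a difference of 3.53 (permutation p = 0.0179), so the values of CpGs in a single stretch lay in opposite directions. At chr2:27533815 in an intron of Rxra the means were 2.34% ± 2.76, 8.47% ± 9.21, 7.06% ± 5.33 and 2.84% ± 3.18, with an interaction of -10.4 ± 4.01 (linear model p = 0.0145). At chr17:34164665 upstream of Rxrb they were 7.96% ± 5.55, 8.07% ± 4.98, 7.47% ± 5.35 and 2.86% ± 3.54, and the maternal diet gave -5.2 ± 1.93 in HF fed mice (permutation p = 0.0163, FDR 0.822). At chr17:34168916 in the 5′ UTR of Rxrb they were 5.8% ± 6.04, 1.04% ± 2.07, 3.48% ± 5.1 and 5.63% ± 5, and the same comparison gave 4.59 ± 1.8 (exact permutation p = 0.0245). All 6 of these CpGs had mice at 0% in every group.

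The other genes of these pathways were counted in 6 lists, chosen with earlier results of these data known. No gene of any list passed an FDR of 5% in any comparison. Among 13 target genes of the liver X receptors, all with tested CpGs and with a median window level of 5.58%, 2, 0, 1 and 2 had an unadjusted p below 0.05 in the 4 comparisons (the maternal diet in HF and in LF fed mice, then the post-weaning diet after LF and after HF fed dams). Over all gene windows the shares at that level were 4.86%, 5.43%, 5.36% and 5.93%. Abcg5, which exports sterols into bile, had the smallest p of that list for the maternal diet in HF fed mice, with 7.15% ± 3.04 against 3.66% ± 2.64 (difference 3.49, permutation p = 0.0178, FDR 0.967), over 2 CpGs. For the maternal diet in LF fed mice Abcg5 went the other way, with 3.99% ± 3.06 against 7.33% ± 4.77 (difference -3.34, permutation p = 0.0793, FDR 0.933). Among 12 bile acid and FXR target genes, 7 had tested CpGs with a median level of 48%, and none had an unadjusted p below 0.05. Of these Cyp7a1, the rate-limiting enzyme of bile acid synthesis, had the smallest p for the maternal diet in LF fed mice. It was at 83.5% ± 4.58 with HF fed and 79.6% ± 4.85 with LF fed dams (difference 3.93, permutation p = 0.0794). Fgf15 had the smallest p in each other comparison. Its lowest was for the post-weaning diet after LF fed dams (difference -1.52, permutation p = 0.066). Among 19 PPAR target genes, 11 had tested CpGs with a median level of 3.28%, and 1, 0, 0 and 1 had an unadjusted p below 0.05. The gene was Ehhadh, a peroxisomal enzyme of fatty acid oxidation, with a difference of 2.69 for the post-weaning diet after HF fed dams over 2 CpGs (4.98% ± 2.22 against 2.29% ± 1.28, exact permutation p = 0.00554, FDR 0.712). Of 9 CAR and PXR target genes 4 had tested CpGs (median level 27.2%), and 0, 0, 0 and 2 had an unadjusted p below 0.05, with Abcc3 lowest (difference -1.94, permutation p = 0.0214). Of 17 other nuclear receptors 15 had tested CpGs (median level 11.3%), and 1, 1, 2 and 3 had one. In this list Hnf4a, a master regulator of hepatocyte genes, was at 24.7% ± 6.58 with HF fed and 33.3% ± 7.08 with LF fed dams in HF fed mice (difference -8.53, permutation p = 0.0132, FDR 0.967). Of 13 co-regulators 12 had tested CpGs, with a median level of 1.6%, and none had an unadjusted p below 0.05. The median difference of every list was within 0.615 points of zero, and that over all genes was within 0.106.

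The receptors whose windows varied most between mice were also compared with all other gene windows of at least 5 CpGs. After removing the group means, the window most like that of Nr1i3 was Gmip, with Pearson's r of 0.58 over 39 mice among 10540 windows, that of Rxra was Gm17588 with 0.648 and that of Ppara was Afap1l2 with 0.619, both over 40 mice among 10513 windows. The lowest r in the same searches were -0.516, -0.647 and -0.631, so the high values stood opposite low ones of like size. The mice share their library depth in all windows, and these values are a description.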

How the data were processed

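The deposited table gives, per mouse and cytosine, counts of methylated and of all reads. The authors made these counts with Bismark, on mm9, from 50-base single-end reads, and pooled no mice. No version is given in the sources used here. The authors set a cytosine with fewer than 10 reads in a mouse to missing, and every listed cytosine had a value in at least 33 mice. The deposited methylation fraction equals the ratio of these counts and was used as percent. A further 0 columns of other samples were left out. The members and the gene lists were chosen with earlier results of these data known.

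Starts came from the GENCODE annotation of mm9. Comparisons used a two-sided Student's test on percent methylation with Benjamini-Hochberg adjustment over all CpGs (or all gene windows) tested, after the study's design, with 10 mice per group. A window value was the mean over its CpGs, each centred on its mean over mice. Printed p-values are from permutation (100000 resamples, or exact enumeration where a group had fewer mice). The interaction is from a linear model over the mice of all 4 groups that had a value, at most 40. The tests were checked on simulated counts. Named for each receptor were the CpG nearest a start and those with the highest and lowest mean, and, over the receptors, per comparison the 2 smallest p and the largest differences, and the 3 largest SDs. CpGs discussed as their neighbours were chosen after their values were seen. Alternatives were other coverage minimums, windows, tests, a covariate, pooled reads and leaving out CpGs at the cut. Python 3.11.15, numpy 2.4.6, scipy 1.17.1, R 4.3.3 and limma 3.58.1 were used. Part of the check on genes of other cells is not reported here.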

Additional observations from a re-analysis of the deposited data

Results flagged for a closer look

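Among 100 groups of receptor values looked at for a mouse far from the others, 8 held one. The rule marks about 1 in 20 groups by chance where values are normally distributed. Some groups lay at or near 0%, and windows were counted beside their own CpGs, so the count cannot be held against that rate. In HF-LF mice the window of Nr1h2 had a mouse at 45.7% (others 43.4% to 44.5%), that of Rxra a mouse at 7.98% (others 2.08% to 4.65%) and that of Rxrb a mouse at 11.6% (others 14.5% to 16.9%). The window of Ppara had an LF-HF mouse at 8.97% (others 1.44% to 5.12%). At the start of Ppard 1 HF-HF mouse had 1.39%, and the others had 0%.

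At single CpGs, all at the MspI cut, an LF-LF mouse had 8% at chr2:91043183 near Nr1h3 (others 0% to 3.33%). An LF-HF mouse had 30% at chr2:27533815 in Rxra (others 0% to 14.3%). An HF-LF mouse had 15.8% at chr17:34168916 in Rxrb (others 0% to 7.32%).

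Of the CpGs named in the text, 5 had an interaction of the diets at an unadjusted p below 0.05. Over all listed receptor CpGs there were 8 of 213 (3.76%), against 4.02% of all listed CpGs. The interactions were 7.26 percentage points at chr7:51803921 near Nr1h2, -10.4 at chr2:27533815 in Rxra and 6.9 at chr17:34168916 in Rxrb. Past the 3′ end of Rxrb they were 37.4 at chr17:34175478 and -26.7 at chr17:34176625. None passed an FDR of 5% over all CpGs, and all but the last lie at the cut.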

How the results depend on the processing

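No receptor CpG and no receptor window passed an FDR of 5% under any alternative that could be computed. The window means depended on which CpGs entered. With all listed CpGs Nr1h2 was at 53.6%, Nr1h3 at 6.93% and Ppard at 38.6%. With CpGs covered in all 40 mice Nr1h2 was at 35.3% and Rxrb at 11.7%. Without CpGs at the cut, an alternative chosen after seeing the data, Nr1h2 was at 42.5%, Nr1h3 at 0.439%, Rxrb at 10.01%, Ppara at 0.544% and Pparg at 0.93%. Within 1000 bp of a start Nr1h2 was at 66.7% and Rxrb at 1.41%, and with the outermost start alone at 68.4% and 10.3%. Pooling reads gave 39.1% for Nr1h2. Each of these settings leaves other CpGs in the window or weights them by depth.

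Of the smallest-p differences, that of Nr1h2 for the maternal diet in HF fed mice turned to 0.561 with all listed CpGs, that of Rxra after LF fed dams to 1.98 within 1000 bp and 2.3 with the outermost start, and that of Rxrb for the maternal diet in HF fed mice to 0.538 within 1000 bp. The last difference was -1.92 with CpGs covered in all 40 mice (unadjusted p = 0.0145, FDR 0.943). The cause was not tested.

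A minimum of 20 reads in 36 mice left no receptor CpG, so that alternative gave no value. No paired analysis was possible because the labels give each mouse a number of its own and no number is shared between groups. Depth also limits single CpGs, since the median was 15 to 33.5 reads per receptor CpG and mouse.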
